A study of Mus musculus with 6 samples.

Results

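The feeding peptide genes of the arcuate nucleus (ARC), a hypothalamic nucleus at the base of the brain, and the genes that process or modulate their products were examined in mice fed a normal or a high-fat diet. The 10 genes were chosen by name and found by Ensembl identifier among the 22322 identifiers of the deposited table: Agrp, Npy and Ghsr of the hunger neurons, Pomc and Cartpt of the satiety neurons, the processing enzyme genes Pcsk1, Pcsk2, Cpe and Pam, and Mrap2, which encodes a receptor accessory protein. All 10 had a row in the table and all 10 passed the filter on low counts, so none was lost to it. Male mice were fed a normal chow diet with 16.5% fat (NCD) or a diet rich in fat with 60% of it (HFD) for 16 weeks from 4 weeks of age, and the ARC was cut out of frozen brain sections by laser capture before poly(A) RNA was sequenced. There were 3 samples of each diet. No genotype or strain is given in the labels. The methods of the study list C57BL/6J wild type mice and a cross of Kiss1-Cre with R26R-EYFP mice, in which Cre marks kisspeptin neurons with a yellow fluorescent protein and which was used to locate the area to be cut, and they do not say which of these gave the RNA. All cells of the cut area contributed RNA, whatever their type. No source says whether a sample was 1 mouse or a pool, so the p-values measure only the spread between these samples, and no label gives a batch.

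The total count per sample was 15925648, 9937632 and 6882449 in NCD 1 to 3, and 8024664, 10479778 and 5171381 in HFD 1 to 3. NCD 1 was thus the deepest library and HFD 3 the shallowest. The 10 genes had between 20 counts (Ghsr in HFD 3) and 36486 counts (Cpe in NCD 1). In bulk tissue, fewer cells of a type and less RNA per cell cannot be told apart.

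The melanocortin system is the main appetite control of the hypothalamus. Neurons that make pro-opiomelanocortin (POMC) release alpha-MSH, which activates the melanocortin receptors MC3R and MC4R and reduces food intake, while neurons that make agouti-related peptide (AgRP) and neuropeptide Y (NPY) oppose it, AgRP by blocking the same receptors. POMC is an inactive precursor: the prohormone convertases PC1/3 (Pcsk1) and PC2 (Pcsk2) cut it, carboxypeptidase E (Cpe) trims the cut ends, and the amidating enzyme PAM (Pam) finishes the peptide.

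Of these genes, Cartpt was higher and Pcsk1 lower in every HFD sample than in any NCD sample, and the values of the other 8 genes overlapped between the diets. Levels are given in CPM, counts scaled to the library total with TMM factors, and the diets were compared with the edgeR quasi-likelihood test over 14188 genes. Without overlap between the diets were 2 of the 10 genes, against 6.47% of all genes tested (3.24% higher on HFD, as Cartpt, and 3.24% lower, as Pcsk1). Past the threshold that the study used (more than 1.5-fold with p under 0.05 before adjustment) was 1 of 10, Cartpt, against 1.9% of all genes tested in either direction, 1.01% higher on HFD and 0.888% lower. The Benjamini-Hochberg adjusted p of edgeR was 0.999 for each of the 10 genes, and 8 of the 14188 genes tested (0.0564%) had an adjusted p under 0.05. The fitted change was positive for 5 members and negative for 5, with a median of -0.0014 on the log2 scale beside 0.0032 over all genes tested, of which 50.5% were positive.

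**Figure D1:**
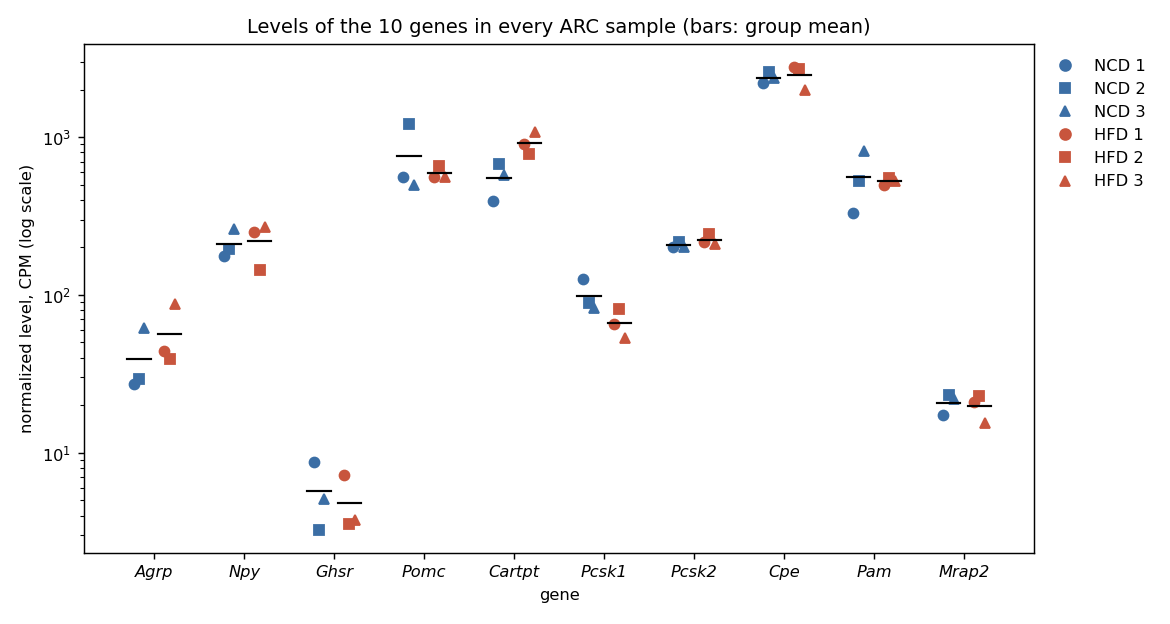
Normalized level in CPM (log axis) of the 10 genes in each of the 6 samples, with NCD in blue, HFD in red, the marker shape giving the sample number and a bar for the mean of the 3 samples. Cartpt and Pcsk1 are the genes whose blue and red points do not overlap, and the single high NCD value of Pomc (1209 CPM) is sample 2.

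Agrp (ENSMUSG00000005705, GRCm38 chr8:105566698-105637393, minus strand) encodes the peptide that blocks the melanocortin receptors. Its level was 27.2, 29.4 and 61.7 CPM in NCD 1 to 3, and 44.0, 39.4 and 87.3 CPM in HFD 1 to 3. The highest value of each diet was in its sample 3 and the diets overlapped, since NCD 3 lay above HFD 1 and HFD 2. The means were 39.4 ± 19.3 CPM on NCD and 56.9 ± 26.4 CPM on HFD (SD, n = 3 each), which is 0.53 as a log2 fold change (SE 0.36, 95% interval -0.24 to 1.30) with an unadjusted edgeR p of 0.159. The log2 fold change was 1.003 without NCD 3, with an unadjusted edgeR p of 0.00561 that is past the threshold of the study, as were 982 of 14489 genes (6.78%) in that fit, and 0.09 without HFD 3, so the size of the Agrp difference rested on single samples. In the annotation, 114 of the 1013 exon bases of Agrp (11.3%) are shared with Ctcf on the opposite strand and also with the non-coding gene Gm5914. The use of strand in counting is not stated, and reads of these genes cannot be told apart there.

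Npy (ENSMUSG00000029819, chr6:49822710-49829507, plus strand) encodes the appetite-stimulating peptide that the same neurons release. It stood at 175.8, 194.2 and 259.9 CPM in NCD 1 to 3 and at 248.7, 144.1 and 267.9 CPM in HFD 1 to 3. The lowest and the highest of the 6 values were both HFD samples. The means of 210.0 ± 44.2 and 220.2 ± 66.6 CPM (SD, n = 3) differed by 0.07 on the log2 scale (95% interval -0.50 to 0.64, unadjusted edgeR p of 0.797), which is less than the spread between samples. Ghsr (ENSMUSG00000051136, chr3:27371351-27378010, plus strand) encodes the receptor through which the stomach hormone ghrelin acts on these neurons. With 145, 32 and 34 counts on NCD and 58, 36 and 20 counts on HFD it was the least covered of the 10 genes, at 8.73, 3.26 and 5.12 CPM against 7.21, 3.55 and 3.76 CPM. In both diets sample 1 was highest, and the interval of its log2 fold change (-1.20 to 0.70) was the widest of the 10. It includes a halving and leaves out a doubling on HFD, and the log2 fold change was 0.22 without NCD 1, so the direction for Ghsr rested on that sample.

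Pomc (ENSMUSG00000020660, chr12:3954951-3960642, plus strand), the precursor of alpha-MSH, had 559.7, 1209 and 500.0 CPM in NCD 1 to 3 and 556.1, 651 and 559.4 CPM in HFD 1 to 3. Sample NCD 2 stood apart, with more than every other sample of either diet, and the remaining 5 samples lay between 500.0 and 651 CPM. The coefficient of variation was 52.0% on NCD and 9.16% on HFD. Its log2 fold change was -0.36 (SE 0.31, 95% interval -1.04 to 0.32, unadjusted edgeR p of 0.269), and it was 0.15 without NCD 2, so the sign of the Pomc difference was set by that sample. The vasopressin and oxytocin genes Avp and Oxt of magnocellular neurons were also highest in NCD 2, and the summed level of the list Avp, Oxt, Sim1, Crh, Trh and Magel2, led by Avp, was 3052, 5949 and 2693 CPM in NCD 1 to 3 and 1492, 1562 and 1433 CPM in HFD 1 to 3. The other 4 genes of the list were not highest in NCD 2, and Magel2 was lowest there (64.2 CPM). The part of these cells in the Pomc values was not tested. The pituitary also makes Pomc, and of 11 pituitary and pars tuberalis genes growth hormone (Gh) and prolactin (Prl) had no count in any of the 6 samples. The other 9 had counts in at least 1 sample, led by Cga with 41 to 255 counts, and Pax7, a factor of the Pomc-making cells of the intermediate lobe, had 3 to 14 counts. The summed level of the list was 21.7, 9.47 and 39.4 CPM on NCD and 28.5, 17.2 and 69.2 CPM on HFD, lowest in NCD 2, and its part in the Pomc values was not tested.

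Cartpt (ENSMUSG00000021647, chr13:99898489-99901091, minus strand) encodes CART, an appetite-reducing peptide made by POMC neurons and also by other hypothalamic neurons. It had 396, 673 and 577 CPM in NCD 1 to 3 and 904, 777 and 1078 CPM in HFD 1 to 3. The lowest HFD value was above the highest NCD value, and the means were 549 ± 141 and 920 ± 151 CPM (SD, n = 3), a 1.68-fold difference with a 95% interval of 1.15 to 2.45. The log2 fold change was 0.75 (SE 0.25) with an unadjusted edgeR p of 0.0116 and a Benjamini-Hochberg adjusted p of 0.999. A two-sided exact permutation test on the CPM values gave p = 0.1, the smallest that 3 against 3 samples allow. Leaving out NCD 1, which had the lowest value and the deepest library, gave a log2 fold change of 0.54, below the 1.5-fold threshold. It was also 0.54 when library size (the log2 total count) was added to the fit. Neurons of the lateral hypothalamus that make melanin-concentrating hormone also express Cartpt, and their marker Pmch was at 446.5, 717 and 692 CPM on NCD and 384, 1917 and 271 CPM on HFD. On NCD the order of the samples was the same for Pmch and Cartpt, and on HFD the sample with the most Pmch had the least Cartpt. The part of these cells in the Cartpt values was not tested.

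Pcsk1 (ENSMUSG00000021587, chr13:75089826-75134861, plus strand) encodes PC1/3, which makes the first cuts in POMC. Its level was 126, 88.4 and 82.6 CPM in NCD 1 to 3 and 65.9, 81.0 and 53.1 CPM in HFD 1 to 3. All HFD values lay below all NCD values, though HFD 2 and NCD 3 were separated by less than the spread within either diet. The means were 99.0 ± 23.5 and 66.7 ± 14.0 CPM (SD, n = 3), and the log2 fold change was -0.57 (SE 0.23, 95% interval -1.07 to -0.07, unadjusted edgeR p of 0.0295, adjusted p = 0.999) and an exact permutation p of 0.1. The ratio of 0.674 is just inside the 1.5-fold limit of the threshold, so Pcsk1 was not counted as past it. Pcsk1 was past it when NCD 2, NCD 3 or HFD 2 was left out, with log2 fold changes of -0.65, -0.68 and -0.74, beside 1.5, 6.78 and 4.23% of all genes in those fits. Without NCD 1, HFD 1 or HFD 3 it was -0.37, -0.56 and -0.43, with unadjusted edgeR p-values of 0.117, 0.0866 and 0.1004, so 3 of the 6 omissions took its p above 0.05. With library size added to the fit it was -0.33 with an unadjusted edgeR p of 0.0510.

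The start sites of these genes were read for the cAMP response element, the sequence bound by CREB1, a transcription factor that the study followed. The motif searched was the full palindromic site TGACGTCA, which reads the same on both strands, in the 250 bases before each RefSeq start site (GRCm38.p6). Of the 8 members with a promoter in the table, 2 held it, Cartpt and Pcsk1, and 508 of all 32851 promoters (1.55%) did. Agrp and Cpe were the members not matched. The members are counted here by gene and the share by promoter, so the 2 are not on the same footing. Cartpt and Pcsk1 are also the members whose diets did not overlap, and they differed in opposite directions. The motif was chosen with earlier results of these data known, so this match is not a test of a link between site and diet. The stretches are shown because they set the sites of these members side by side, 5′ to 3′ on the strand of the gene, with the match in capitals. The Pcsk1 stretch is chr13:75089739-75089821 on the plus strand, with the match starting 78 bases before the start site. The Cartpt stretch is chr13:99900777-99900806 on the minus strand, with the match starting 112 bases before the start site, and its 30 bases lie in an exon of a longer annotated Cartpt transcript. A match is a description of the letters and not evidence of binding.
Pcsk1: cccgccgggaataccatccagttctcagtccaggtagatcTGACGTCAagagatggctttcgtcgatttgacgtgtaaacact
Cartpt: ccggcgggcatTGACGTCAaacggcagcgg

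The enzymes that follow PC1/3 were not past the threshold, and their values overlapped between the diets. Pcsk2 (ENSMUSG00000027419, chr2:143546156-143816285, plus strand) encodes PC2, which cuts the POMC fragments further to yield the shorter melanocortins. Its values lay close together, at 201.6, 215.7 and 201.2 CPM in NCD 1 to 3 and 215.5, 242 and 210.3 CPM in HFD 1 to 3, with coefficients of variation of 4.01% and 7.68%. Its log2 fold change of 0.11 had a 95% interval of -0.31 to 0.53, so a doubling or halving lies outside it. In the annotation Pcsk2 shares 260 exon bases (3.29%) with the antisense gene Pcsk2os1 and 99 (1.25%) with Pcsk2os2, whose reads cannot be told apart without strand.

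Cpe (ENSMUSG00000037852, chr8:64592542-64693054, minus strand) encodes carboxypeptidase E, which trims basic residues off the cut peptides. Its CPM values were 2197, 2570.1 and 2378 on NCD and 2775, 2686 and 1997 on HFD. The HFD samples held both the highest and the lowest value, and the log2 fold change was 0.06 (SE 0.23, 95% interval -0.44 to 0.56). Pam (ENSMUSG00000026335, chr1:97795114-98095646, minus strand), the amidating enzyme, had 331, 525 and 816 CPM on NCD and 498, 548 and 530.2 CPM on HFD. The 3 HFD values lay within the range of the NCD values, with a coefficient of variation of 43.8% on NCD and 4.82% on HFD. In the annotation it shares 188 exon bases (1.58%) with B230216N24Rik on the same strand. The log2 fold change of Pam was -0.08 (95% interval -0.72 to 0.55), and it was 0.30 without NCD 3. Mrap2 (ENSMUSG00000042761, chr9:87144306-87184045, plus strand) encodes an accessory protein that binds melanocortin receptors and the ghrelin receptor. It was at 17.3, 23.1 and 22.0 CPM on NCD and at 20.9, 22.9 and 15.4 CPM on HFD, a log2 fold change of -0.06 (95% interval -0.58 to 0.45) with overlapping diets. For 5 of the 10 genes (Npy, Pcsk2, Cpe, Pam and Mrap2) the 95% interval lay within 1 log2 unit of 0 on both sides, and for Agrp, Ghsr, Pomc, Cartpt and Pcsk1 it did not.

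**Figure D2:**
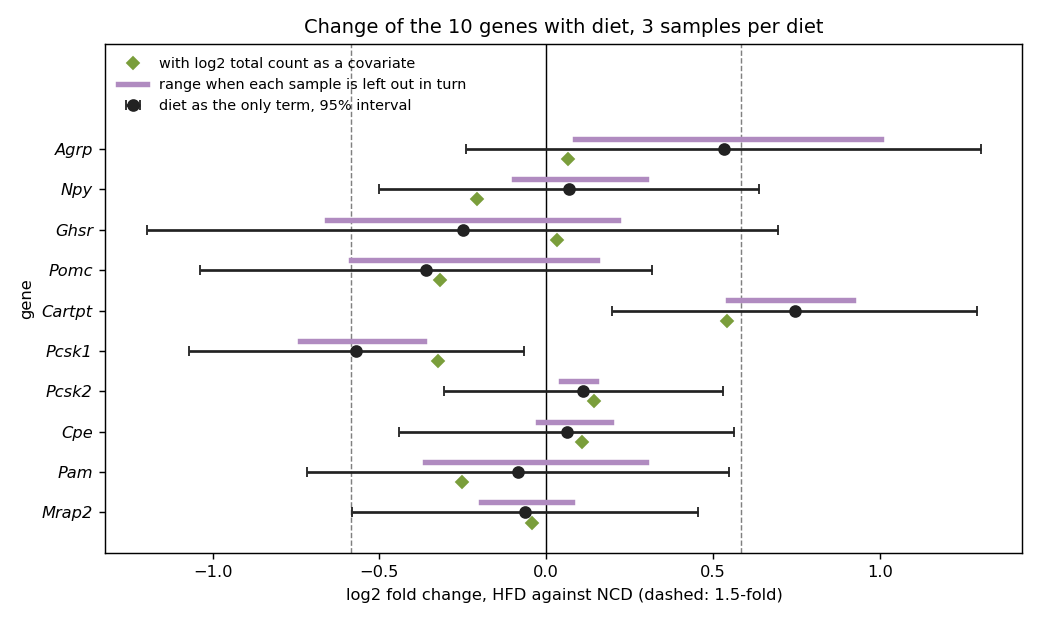
Log2 fold change of HFD against NCD for the 10 genes from the edgeR fit with 3 samples per diet: black points with 95% intervals for diet as the only term, green diamonds for the fit that also holds library size, and violet bars for the range when each sample is left out in turn. Only the intervals of Cartpt (0.20 to 1.29) and Pcsk1 (-1.07 to -0.07) leave out 0, and the diamond of Agrp lies at 0.07.

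Per length of transcript, the genes spanned from the enzyme Cpe at the top to the receptor Ghsr at the bottom. On the deposited FPKM scale (fragments scaled to gene length and library total, mean of the 6 samples) Cpe was highest at 1146, followed by Cartpt at 749, Pomc at 667 and Npy at 380.0. Pam stood at 145, Agrp at 72.5, Pcsk2 at 45.3, Pcsk1 at 16.5, Mrap2 at 10.1 and Ghsr at 1.19 FPKM. Among neighbours in this order, Cpe exceeded Cartpt in 5 of 6 samples and Agrp exceeded Pcsk2 in 4 of 6. Cartpt exceeded Pomc in 4 of 6 samples, 1 on NCD and all 3 on HFD. In these pairs the order did not hold beyond the spread between samples. Each of the remaining neighbours kept its order in all 6 samples, the convertases Pcsk2 and Pcsk1 among them.

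Ratios of counts within a sample need no scaling between libraries, and 2 of the 4 ratios examined did not overlap between the diets. These 2 hold Cartpt and Pcsk1, whose CPM values did not overlap either, so they are not a separate result. The share of other pairs of genes without overlap was not computed. The ratio of Cartpt to Pomc counts was 0.707, 0.557 and 1.15 in NCD 1 to 3 and 1.63, 1.19 and 1.93 in HFD 1 to 3. All HFD samples had more Cartpt than Pomc counts and NCD 3 alone of the NCD samples did, with geometric means of 0.769 and 1.55 (n = 3 each), a log2 difference of 1.01 with an exact permutation p of 0.1. Pcsk1 to Pcsk2 gave 0.625, 0.410 and 0.411 on NCD and 0.306, 0.335 and 0.252 on HFD. The balance of the convertase transcripts was thus further on the side of Pcsk2 in every HFD sample, with geometric means of 0.472 and 0.295, a log2 difference of -0.68 and an exact permutation p of 0.1. The ratio of Agrp to Npy counts was 0.155, 0.151 and 0.237 on NCD and 0.177, 0.274 and 0.326 on HFD, a log2 difference of 0.50 with overlapping diets and an exact permutation p of 0.2. Agrp to Pomc, the ratio of the opposing ligands, was 0.0486, 0.0243 and 0.123 on NCD and 0.0791, 0.0606 and 0.156 on HFD. It overlapped between the diets, with a log2 difference of 0.79 and an exact permutation p of 0.4. The 4 ratios share genes and samples and are not independent of each other. When each sample was left out in turn the log2 differences ranged from 0.78 to 1.31 for Cartpt to Pomc, from -0.78 to -0.47 for Pcsk1 to Pcsk2, and from 0.31 to 0.75 for Agrp to Npy. For Agrp to Pomc they ranged from 0.23 without NCD 2 to 1.40 without NCD 3.

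**Figure D3:**
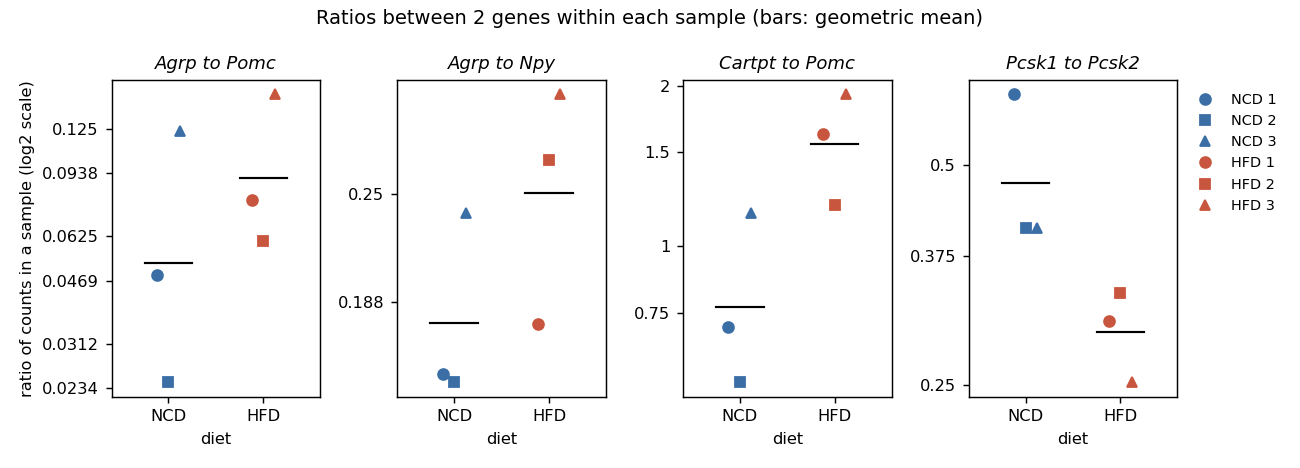
Ratio of the counts of 2 genes within each sample (log2 axis) by diet for 4 pairs of genes, with points for the 3 NCD (blue) and 3 HFD (red) samples and bars for the geometric means. The diets are apart for Cartpt to Pomc (geometric means 0.769 and 1.55) and for Pcsk1 to Pcsk2 (0.472 and 0.295) and overlap for the 2 Agrp ratios.

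Relative to general neuron genes, Cartpt and Pcsk1 did not overlap between the diets, and neither did 5% of all genes tested on this scale. These values are the same CPM divided by a sum that overlapped between the diets, and are not independent of the CPM. The summed level of 10 general neuron genes, of which Snap25 was the most abundant, was 4397 ± 351 CPM on NCD and 4302 ± 640 CPM on HFD (SD, n = 3). Cartpt was 9.72, 14.1 and 13.3% of this sum in NCD 1 to 3 and 21.5, 15.6 and 29.1% in HFD 1 to 3, without overlap and with a log2 difference of 0.81. Pcsk1 was 3.09, 1.85 and 1.90% of it on NCD and 1.56, 1.63 and 1.43% on HFD, a log2 difference of -0.53, also without overlap. Both had an exact permutation p of 0.1, and the other 8 genes overlapped between the diets on this scale as well.

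The levels were also set beside the depth of the libraries. Agrp had 452, 289 and 410 counts on NCD and 354, 400 and 464 counts on HFD, so its raw counts varied less than the library totals, and its CPM was higher the shallower the library, apart from NCD 2 and HFD 2, which had similar totals. Within each diet the 3 samples ran in this order, with the shallowest library highest and the deepest lowest. Over the 6 samples, Agrp against the log2 total count had a Pearson r of -0.931 (exact permutation p = 0.00833, 0.133 after Benjamini-Hochberg adjustment over 16 relations) and a Spearman rho of -0.943 (exact permutation p = 0.0167, adjusted 0.133). Without the deepest and the shallowest library r was -0.856. Npy had an r of -0.782 (exact permutation p = 0.0542, adjusted 0.289) and a rho of -0.943 (exact permutation p = 0.0167, adjusted 0.133), and its r was -0.909 without these libraries. Pcsk1 ran the other way with an r of 0.909 (exact permutation p = 0.0278, adjusted 0.222) and a rho of 0.714 (exact permutation p = 0.136, adjusted 0.544), but r was 0.322 without them, so this relation rested on those samples. For Cartpt r was -0.775 (exact permutation p = 0.0722, adjusted 0.289) and rho -0.600 (exact permutation p = 0.242, adjusted 0.552), with an r of 0.344 without the same libraries. No relation had an adjusted p under 0.05. With library size added to the fit the log2 fold change of Agrp was 0.07, of Npy -0.21, of Cartpt 0.54 and of Pcsk1 -0.33, and no member was then past the threshold. The part of depth in the differences between the diets was not tested beyond this.

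**Figure D4:**
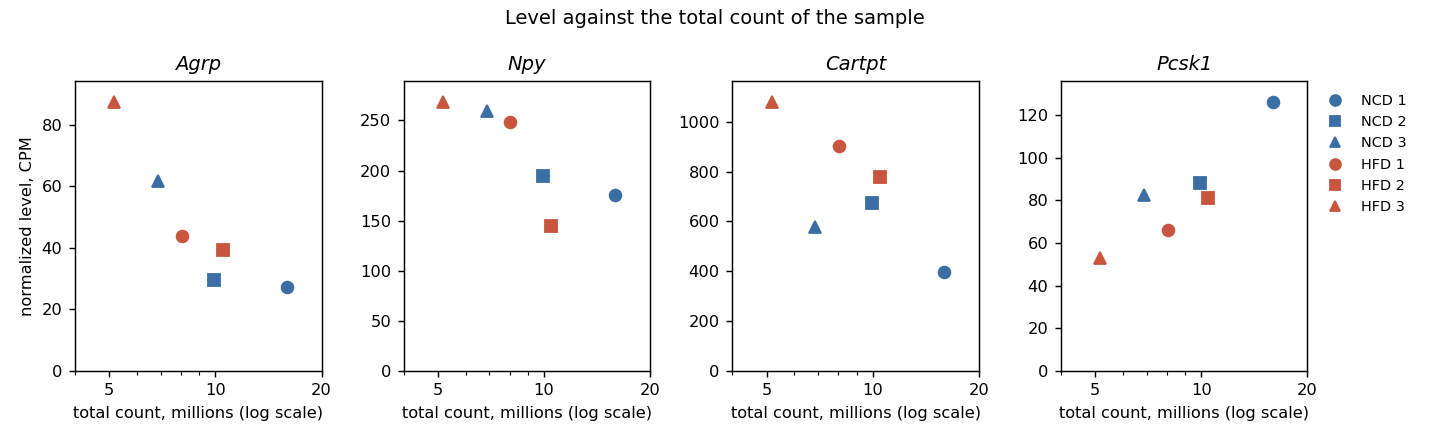
Level in CPM (linear axis from 0) of Agrp, Npy, Cartpt and Pcsk1 against the total count of the sample (log axis), with NCD in blue and HFD in red and the marker shape giving the sample number. Agrp and Npy are highest in the shallowest library (87.3 and 267.9 CPM in HFD 3), and Pcsk1 is highest in the deepest (126 CPM in NCD 1).

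As a description of likeness over the 6 samples, the genes whose log2 CPM followed Agrp most closely among 10495 genes with a mean of at least 10 CPM were B4galt6, Lrp8, Etf1, Mettl14 and Aak1, with Pearson r from 0.992 to 0.998. There were 135 genes with an r above 0.95 to Agrp, and Npy, made in the same neurons, had an r of 0.714 and took place 1945. Closest to Pomc were Ctsz, Ubxn11, Edem2, Vstm5 and Psap with r from 0.961 to 0.992, and 10 genes had an r above 0.95. Cartpt, which POMC neurons also make, had an r of 0.01 to Pomc and took place 5426. The points share their libraries and depth.

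The receptors of the melanocortin peptides were then read from the same fit. Of 11 listed receptor and modulator genes 10 were found, 7 were tested and 0 were past the threshold of the study, with a median log2 fold change of 0.10 beside 0.0032 over all genes tested. Mc3r, a receptor on ARC neurons that senses both alpha-MSH and AgRP, was at 19.0, 19.1 and 17.5 CPM on NCD and at 23.1, 26.3 and 29.0 CPM on HFD. The diets did not overlap, but the log2 fold change of 0.49 (SE 0.21, unadjusted edgeR p of 0.0372, adjusted p = 0.999) was under 1.5-fold. Mc4r, the main receptor for weight control, averaged 9.47 ± 2.77 and 11.1 ± 0.958 CPM (SD, n = 3). Sdc3, a syndecan that modulates AgRP action, averaged 172 and 158 CPM and Atrn, the attractin gene, 157 and 156 CPM. Mc5r was under 3 CPM in every sample, and Mc1r, Mc2r and Mrap, which encodes the accessory protein of the adrenal receptor, were too low to be tested.

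In the list of further peptide processing and sorting genes, 13 of 14 were tested and 1 was past the threshold, with a median log2 fold change of 0.01. This was Qpctl, which encodes a glutaminyl cyclase, at 29.4, 28.2 and 22.7 CPM on NCD and 16.7, 20.8 and 15.4 CPM on HFD (log2 fold change -0.60, SE 0.23, unadjusted edgeR p of 0.0204, adjusted p = 0.999), without overlap. The partners of the convertases did not pass the test. Pcsk1n, which encodes proSAAS, an inhibitor of PC1/3, averaged 1397 ± 259 and 1340 ± 131 CPM, and Scg5, which encodes the PC2 chaperone 7B2, 459 ± 71.6 and 526 ± 63.6 CPM (SD, n = 3). Scg3, a granin of the secretory granule, averaged 257 and 258 CPM and Ctsl, a protease that can cut prohormones, 180 and 196 CPM.

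Of 11 genes of the ghrelin, leptin, insulin and NPY inputs, 7 were tested and 0 were past the threshold, with a median of -0.01. The NPY receptors Npy1r (44.2 and 44.2 CPM) and Npy2r (44.3 and 33.8 CPM), the serotonin receptor Htr2c (35.3 and 34.6 CPM) and the insulin receptor Insr (30.8 and 43.0 CPM) were the most abundant. The leptin receptor Lepr averaged 7.61 and 9.41 CPM with overlapping diets. Npy6r had no count in any sample, and the ghrelin gene Ghrl had 2 counts in NCD 1 and none elsewhere.

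Identity markers of the AgRP and POMC neurons gave 0 genes past the threshold: 0 of 9 transcription factors (median log2 fold change 0.14), 0 of 8 further AgRP neuron markers (median 0.06) and 0 of 4 further POMC neuron markers (median -0.09), lists that overlap in part. The summed AgRP neuron markers were 616 ± 11.97 CPM on NCD and 607 ± 15.8 CPM on HFD (SD, n = 3), of which Gad2 made up 43.3% and Gad1 (228 and 212 CPM) most of the rest, 2 genes that GABA neurons of any kind express. The narrower markers Otp and Corin averaged 17.1 and 2.12 CPM on NCD and 21.8 and 1.79 CPM on HFD, and the summed POMC neuron markers, led by Isl1, 106 ± 6.54 and 111 ± 24.6 CPM. Prdm12, a factor that POMC neurons need to form, had the lowest fitted value of these (-0.98, SE 0.63, unadjusted edgeR p of 0.143), at 5.60, 7.53 and 0.602 CPM on NCD and 2.11, 2.86 and 2.07 CPM on HFD. Its NCD samples spanned all HFD samples.

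Markers of other cells in or near the ARC differed in places where the peptide genes were compared, and their part in the results on Cartpt and Pcsk1 was not tested. Of 6 magnocellular and paraventricular genes (median -0.45), 2 were past the threshold, Avp (log2 fold change -1.71) and Oxt (-0.87), the vasopressin and oxytocin genes, both lower on HFD without overlap. Trh, the gene of thyrotropin-releasing hormone, went the other way without overlap, at 44.6, 70.8 and 72.1 CPM on NCD and 94.1, 86.3 and 86.2 CPM on HFD (log2 fold change 0.51, SE 0.22, unadjusted edgeR p of 0.0374, adjusted p 0.999), and was under 1.5-fold. Sim1 was lower on HFD without overlap, at 8.61, 7.84 and 9.18 CPM on NCD and 5.22, 5.72 and 6.02 CPM on HFD. Its log2 fold change of -0.60 had an unadjusted edgeR p of 0.0629 and was not past the threshold. Magel2 (fitted value 0.20) and Crh (-0.31) had overlapping diets and were not past it either. Avp made up 74.5% of the summed level given above. Of 8 genes of other ARC neurons (median 0.31) 2 were past it, Gal, the galanin gene (0.70, without overlap) and Tac2, the neurokinin B gene (0.60). The fitted value was positive for 7 of these 8 genes and negative for 1. The summed level of the 8, led by Sst, was 821, 1168 and 1141 CPM on NCD and 1237, 1249.9 and 1342 CPM on HFD, without overlap (exact permutation p of 0.1). Kiss1, the gene that marks the neurons the cut area was chosen for, had no count in NCD 1 or HFD 1 and was at 2.75 and 4.81 CPM in NCD 2 and 3 and at 2.07 and 7.90 CPM in HFD 2 and 3.

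Of 8 tanycyte genes, which mark the cells lining the ventricle beside the ARC, 1 was past the threshold, Crym (0.89), and all 8 had a positive fitted log2 fold change, with a median of 0.34 beside 0.0032 over all genes tested. The summed level, 88.9% of it Nnat, was 2053, 2381 and 2019 CPM on NCD and 2928, 2136 and 2511 CPM on HFD. Of 11 pituitary and pars tuberalis genes 5 were tested, and Cga, the common subunit of the glycoprotein hormones, was past it (1.36) with its highest value, 48.0 CPM, in HFD 3 (list median 0.35). The corticotroph factor Tbx19 averaged 2.11 and 1.51 CPM. The dorsomedial list (median 0.78) had 1 of 5 past it, Grp (1.12), with sums of 53.8, 32.0 and 63.3 CPM on NCD and 72.0, 48.6 and 58.5 CPM on HFD. The ventromedial list (6 genes, median -0.09, most abundant Adcyap1) and the lateral hypothalamic list (2 genes, median 0.43, 95.7% Pmch) had 0. The lateral sums were 456, 752 and 735 CPM on NCD and 413, 1991 and 280.3 CPM on HFD, and the ventromedial sums 351, 328 and 283 CPM and 318, 409.6 and 246 CPM.

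Among glial and vascular genes, 1 of 7 astrocyte genes was past the threshold (Gfap, 0.88), 0 of 8 oligodendrocyte genes, 0 of 7 microglial genes and 1 of 6 endothelial genes (Ly6c1, 0.81), with median log2 fold changes of -0.12, -0.16, 0.06 and -0.0032. The endothelial list had 3 positive and 3 negative fitted values. Its gene Cldn5 was lower on HFD without overlap, at 48.4, 52.2 and 44.4 CPM on NCD and 35.5, 40.4 and 28.0 CPM on HFD. The log2 fold change of Cldn5 was -0.48 (unadjusted edgeR p of 0.0406, adjusted p 0.999), under 1.5-fold. The astrocyte sums, led by Slc1a2, averaged 3061 ± 243 and 3209 ± 340 CPM and the oligodendrocyte sums, led by Mbp, 3913 ± 858 and 3710 ± 767 CPM (SD, n = 3). The microglial sums, led by C1qb, were 281, 287 and 232 CPM on NCD and 309, 306 and 309 CPM on HFD, without overlap. The microglial genes did not move together, with 4 positive and 3 negative fitted values. Positive were C1qa (0.46), C1qb (0.44), Aif1 (0.40) and Csf1r (0.06), and negative were Cx3cr1 (-0.12), P2ry12 (-0.07) and Tmem119 (-0.0049). The endothelial sums, led by Flt1, averaged 194 ± 18.0 and 204 ± 3.31 CPM. No gene of any list had a Benjamini-Hochberg adjusted p under 0.05 in edgeR.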

How the data were processed

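Poly(A) RNA of laser-captured ARC tissue from 3 NCD and 3 HFD samples was sequenced. The authors removed ribosomal reads with bowtie2, aligned with HISAT2 and used StringTie and RSEM for gene counts and FPKM, which they deposited as raw counts and FPKM in 1 table of 22322 identifiers. Tool versions are not given in the sources used here, and the submitters' processing notes name mm10. The table also holds group means and the authors' own fold changes, p-values and false discovery rates, which were not used. Samples titled C1 to C3 were taken as NCD and H1 to H3 as HFD. The 10 genes and all gene lists, the searched motif and the printed stretches were chosen with earlier results of these data known.

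Counts were fitted with edgeR 4.0.16 (TMM, filterByExpr, glmQLFit, glmQLFTest, diet as the only term, 14188 genes). The standard error is the absolute log2 fold change over the root of F. Within-sample ratios, levels relative to neurons and correlations were tested with two-sided exact permutation tests (SciPy 1.17.1), for which 3 against 3 samples cannot give p below 0.1. The text names all 10 genes and, of each list, the genes past the threshold of the study and up to 4 of the most abundant others. Some listed genes beyond these were named after their values were seen (Mc5r, Lepr, Pax7, Kiss1, Otp, Bsx, Corin, P2ry12, Tmem119, Aif1 and the genes too low to be tested). Gene positions are from GENCODE M21 (GRCm38) and promoters from RefSeq. Counts were simulated from the gene means and library totals of these samples, with the same biological coefficient of variation (0.244) for every gene. At an adjusted p under 0.05, 47 of 98 genes with a log2 change of 1 and 95 of 97 with a change of 2 were called among 14077 genes. Spread that differs between genes was left out, so these shares may not hold for the 10 genes. In addition, 6 genes simulated without a change were called. Alternatives were RLE factors, library totals alone, other count filters, DESeq2 1.42.0, limma 3.58.1 on log2(FPKM + 1) and log2(FPKM + 0.1), a replicate block, the log2 total count as a covariate, and leaving out each sample. Intervals reflect spread between samples, which edgeR shares in part over all genes tested, so they are not the spread of the gene alone. Library totals from 5171381 to 15925648 set the counting precision.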

Additional observations from a re-analysis of the deposited data

How the results depend on the processing

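The 10 genes have 15 alternatives each. Of these 150 values, 129 kept their direction and side of the threshold, 2 lost the threshold, 4 gained it and 15 changed sign, and the lowest adjusted p of any member was 0.604. Cartpt was past the threshold of the study except without NCD 1 and with the total count as a covariate, where no member was (0 of 10). When each sample was left out in turn, 0 to 3 members were past it: Cartpt and Pcsk1 without NCD 2 and without HFD 2, and Agrp as well without NCD 3. Changes of sign were seen with log2 fold changes of 0.0138 and 0.0144 for Pam in the limma fits with pseudocounts 1 and 0.1 and 0.0120 with the replicate block, and of -0.21 for Npy and 0.0315 for Ghsr with the covariate. Over the samples left out in turn the log2 fold change ranged from -0.10 to 0.30 for Npy, -0.66 to 0.22 for Ghsr, -0.59 to 0.15 for Pomc, -0.74 to -0.37 for Pcsk1, -0.0235 to 0.20 for Cpe, -0.36 to 0.30 for Pam and -0.20 to 0.0761 for Mrap2. No ratio changed sign. Over all genes, 8 had an adjusted p under 0.05, and this became 15 with every gene of at least 1 count, 19 with DESeq2, 5 with either limma fit, 15 with the covariate and 1 to 16 with a sample left out (1 without NCD 2, HFD 1 or HFD 2, 4 without HFD 3 and 16 without NCD 3). Past the threshold of the study were 270 genes, 427 with every counted gene, 179 with a mean of at least 50 counts, and 195 to 982 with a sample left out (606 without HFD 2 and 982 without NCD 3). The cause of these moves was not tested.

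The deviations of same-numbered samples had correlations of -0.01, 0.11 and 0.37. Those of differently numbered samples ranged from -0.38 (NCD 3 with HFD 2) to 0.31 (NCD 1 with HFD 2). These correlations do not decide whether the numbers pair the samples, and the highest was between NCD 3 and HFD 3. No source says that the numbers do so, and the main fit used no pairing. With the replicate block 17 genes had an adjusted p under 0.05, 376 were past the threshold of the study and Cartpt was the 1 member past it (0.77). The ratios have an exact p of 0.25 within pairs, the smallest that 3 pairs allow.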
